A study of Mus musculus with 48 samples.

Results

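The genes of the autophagy machinery were followed in subcutaneous white adipose tissue (sWAT) of mice on nightly timed meals (TAN) or fed ad libitum (ad-lib). The 35 members were a fixed list of symbols, 5 of the initiation complex, 5 of the nucleation complex, 5 of lipid transfer and membrane supply, 10 of the conjugation enzymes, 5 Atg8 proteins, 3 cargo receptors and 2 transcription factors. They were listed by their known roles, with earlier results of these data known. All 35 were found among the 54532 genes listed, and all 35 passed the filter on low counts that 19977 genes passed.

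All groups were mice labelled C57BL/6 and 8 months old, C57BL/6J males by the study's methods, and the labels call the tissue iWAT, the inguinal depot. The meals of TAN mice lasted from 9 until 11 p.m. and then from 5 until 7 a.m., inside a dark phase of 8 p.m. to 8 a.m., after 6 months on this schedule by the study's methods, and ad-lib mice had food at all times. Each diet was sampled at 6 time points with 4 libraries each, 48 libraries in all, and the counts of a library totalled 15636378 to 29913310. By the study's methods TAN mice ate slightly less than ad-lib mice, so meal timing and intake cannot be told apart. The labels number the libraries of a group without naming the mice, so p-values measure the spread between these libraries.

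Autophagy delivers parts of the cell to the lysosome. A kinase complex around Ulk1 receives the signal of nutrient shortage, a lipid kinase complex around Beclin 1 marks the site where a membrane grows, and 2 ubiquitin-like conjugation systems attach Atg8 proteins, the LC3 and GABARAP families, to that membrane, where receptors such as p62 hold cargo. In white fat, autophagy is known for its part in adipocyte differentiation and in the turnover of mitochondria in beige adipocytes. The abundance of these mRNAs does not measure the flux of autophagy.

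The design text names the stromal vascular fraction, while the labels and the study's methods name whole fat. The adipocyte markers Adipoq and Plin1 were present in every library, with lowest values of 551 and 176 counts scaled to library size (CPM, taken over the TMM-scaled library). All 7 adipocyte markers together reached 8483 to 65712 CPM. The 10 lymphocyte markers summed to 7.96 to 2502 CPM, so the share of lymph node or lymphocyte RNA differed widely between libraries. In bulk tissue, fewer cells of a type and less RNA per cell cannot be told apart.

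The time labels were checked with the clock. Arntl, a core activator of the clock, was highest at 8 a.m. in both diets, at 32.3 ± 9.59 CPM (SD, n = 4) in ad-lib and 46.0 ± 4.60 CPM (SD, n = 4) in TAN sWAT. Dbp, an output gene of the clock, was highest at 4 p.m. in both, at 101.9 ± 19.9 CPM (SD, n = 4) and 153.9 ± 58.0 CPM (SD, n = 4). A second listing that accompanies the study gives the same libraries per animal under other times. Over 979 genes, all 48 libraries matched the animal of the same name listed 12 h apart, and 0 matched under the same time. Times below are those of the sample labels, and a comparison within a time point holds the same libraries under either listing. Hours since a meal hold for the labels only. Under the other listing, the libraries of 4 p.m. and 8 p.m. would be those of 4 a.m. and 8 a.m., 5 h and 1 h after a TAN meal.

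Promoters of 29 of the 35 members were matched in the RefSeq table of GRCm38.p6, which holds 250 bases before and 50 bases after each start site. The motif TCACGTG, the core of the element that the transcription factors Tfeb and Tfe3 are known to bind, was searched on both strands (CACGTGA on the other). It lay in the windows of 3 members, Atg3, Atg7 and Atg14, which is 10.3% of the matched members, against 4.29% of 27025 genes. A gene was counted if any of its windows held the motif. The Atg7 window, chr6:114670846-114671145, lies inside the gene, which begins at 114643097 on the plus strand. That of Atg14 also lies inside its gene, which begins at 47570649 on the minus strand. The Forkhead motif GTAAACA, searched likewise, lay in 0 members and in 4.05% of genes. The windows of Atg3 and Atg14 are shown because both genes were called in the comparisons below. Capitals mark the motif, and the 8 capitals of the second match in Atg3 are the motif on both strands, overlapping by 6 bases. The Atg3 window covers chr16:45158579-45158878 on the plus strand, with the first match beginning at position -95 from the start site. The Atg14 window covers chr14:47568385-47568684 on the minus strand, with the match beginning at position -1.
Atg3: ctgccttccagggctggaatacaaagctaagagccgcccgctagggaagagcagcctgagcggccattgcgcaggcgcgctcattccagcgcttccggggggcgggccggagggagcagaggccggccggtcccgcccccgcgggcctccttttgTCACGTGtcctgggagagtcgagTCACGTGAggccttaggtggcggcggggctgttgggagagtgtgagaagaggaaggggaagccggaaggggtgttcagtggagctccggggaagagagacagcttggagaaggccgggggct
Atg14: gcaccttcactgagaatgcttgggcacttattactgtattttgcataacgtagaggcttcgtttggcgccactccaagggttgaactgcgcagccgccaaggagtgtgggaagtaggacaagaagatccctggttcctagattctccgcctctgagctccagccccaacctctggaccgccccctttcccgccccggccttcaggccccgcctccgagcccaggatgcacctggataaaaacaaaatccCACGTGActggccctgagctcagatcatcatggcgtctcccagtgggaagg

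Per kilobase of transcript, the Atg8 genes and p62 stood at the top of the list. The median over the 48 libraries was 180 CPM per kb for Gabarap, 113 for Map1lc3a, 83.8 for Sqstm1, which encodes p62, and 67.1 for Gabarapl1. The other Atg8 genes followed at 29.9 for Gabarapl2 and 27.9 for Map1lc3b, beside 28.9 for Atg12 and 25.7 for Atg3. The lowest medians on this scale were 1.18 for Atg9a, the membrane protein that seeds the autophagosome, 1.40 for the lipid transfer gene Atg2a and 2.14 for Tfe3.

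The question of the TAN comparison was how meal timing changed sWAT gene expression over the day. Counts were scaled by TMM factors and tested in edgeR with its quasi-likelihood F test, with p adjusted by Benjamini and Hochberg over all 19977 genes, and a gene was called at an adjusted p under 0.05. Most member calls fell at 2 time points late in the TAN fast. At 4 p.m., 9 h after the last meal, 4 of the 35 members were higher in TAN sWAT and 0 were lower, against 6.54% and 8.77% of all genes. At 8 p.m., 13 h after it, 3 members were higher and 4 lower, against 3.76% and 7.91%. With a log2 fold change above 1 in size required as well, 0 members passed at 4 p.m. (2.93% of genes higher and 7.43% lower), and at 8 p.m. 0 were higher (1.19%) and 1 lower (5.84%). Without adjustment, p fell under 0.05 at 4 p.m. for 10 members on the higher side (13.8% of all genes) and 0 on the lower side (19.4%), and DESeq2 and limma voom also called 0 lower there. These shares of the members, 11.4% higher at 4 p.m. and 8.57% up and 11.4% down at 8 p.m., lie near or up to a few percentage points above the background.

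**Figure D1:**
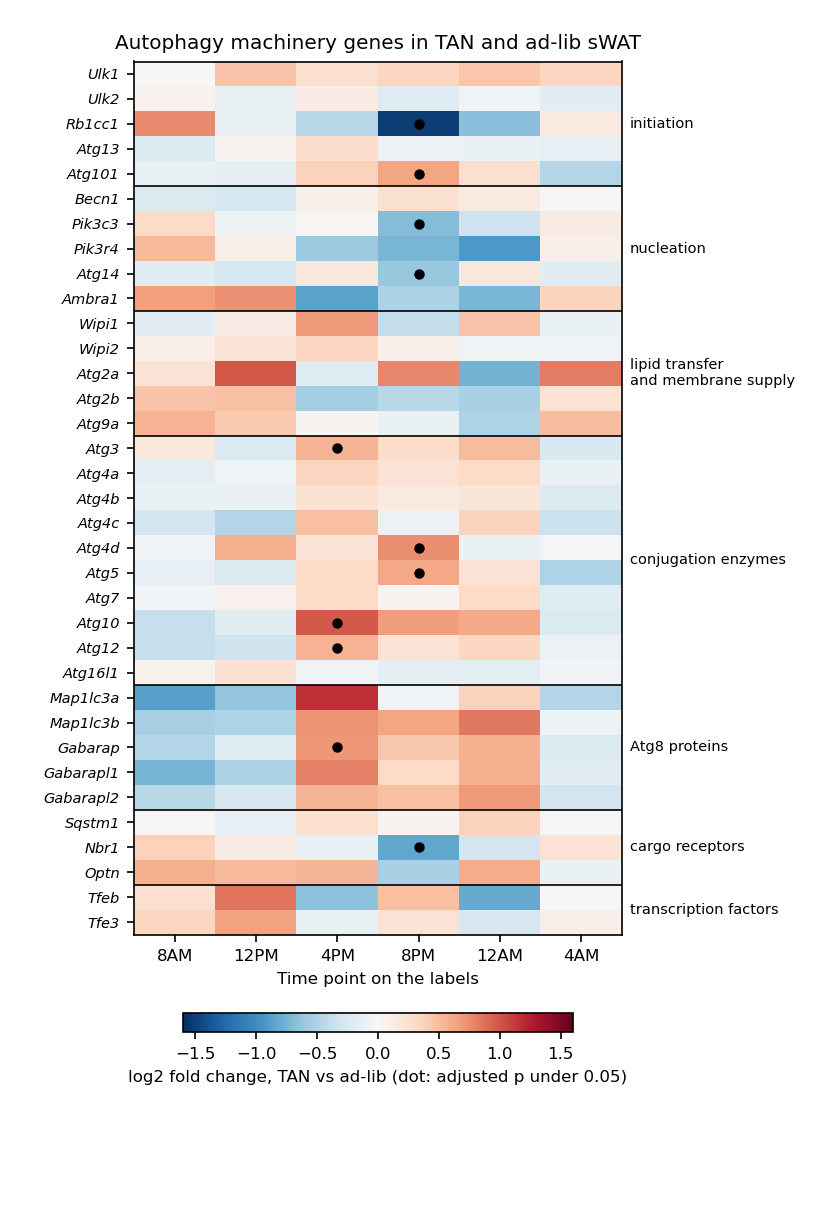
Heat map of the log2 fold change of TAN against ad-lib libraries for the 35 members (rows, grouped by role) at 6 time points (columns), n = 4 per diet and time point. Red is higher and blue lower in TAN, and a dot marks an adjusted p under 0.05, which falls on 4 members at 4PM and 7 at 8PM.

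The members called at 4 p.m. were the Atg8 gene Gabarap and 3 genes of the conjugation systems. Gabarap had 229 to 287 CPM in ad-lib libraries (287, 275, 240 and 229) and 344 to 514 CPM in TAN libraries (461, 344, 514 and 346). The 4 TAN libraries were all above the 4 ad-lib libraries. Its log2 fold change was 0.69 (SE 0.23, adjusted p = 0.0387, edgeR).

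Atg3, the E2-like enzyme that passes Atg8 proteins to the membrane lipid, had 69.4, 62.9, 53.0 and 67.1 CPM in ad-lib libraries and 97.4, 75.8, 102 and 93.4 CPM in TAN libraries. The diets did not overlap, and the log2 fold change was 0.54 (SE 0.17, adjusted p = 0.0287, edgeR). Atg10, the E2-like enzyme of the Atg12 system, had 16.3, 16.1, 13.6 and 14.0 CPM in ad-lib and 43.8, 24.6, 25.9 and 24.8 CPM in TAN libraries. The diets did not overlap here either, and TAN replicate 1 lay far above the other TAN libraries (log2 fold change 0.98, SE 0.33, adjusted p = 0.0387, edgeR).

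Atg12, the ubiquitin-like protein that is joined to Atg5, had 71.3, 65.6, 56.7 and 62.4 CPM in ad-lib and 129, 82.9, 94.1 and 71.1 CPM in TAN libraries. The lowest TAN library lay just under the highest ad-lib library, so the diets overlapped (log2 fold change 0.56, SE 0.19, adjusted p = 0.0412, edgeR). In all, 9 members were higher in every TAN library at 4 p.m., against 12.8% of all genes, and 0 were lower in every TAN library, against 17.8%. Those not called were Map1lc3b, Gabarapl1, Atg13, Atg7, Atg4a and Wipi1.

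**Figure D2:**
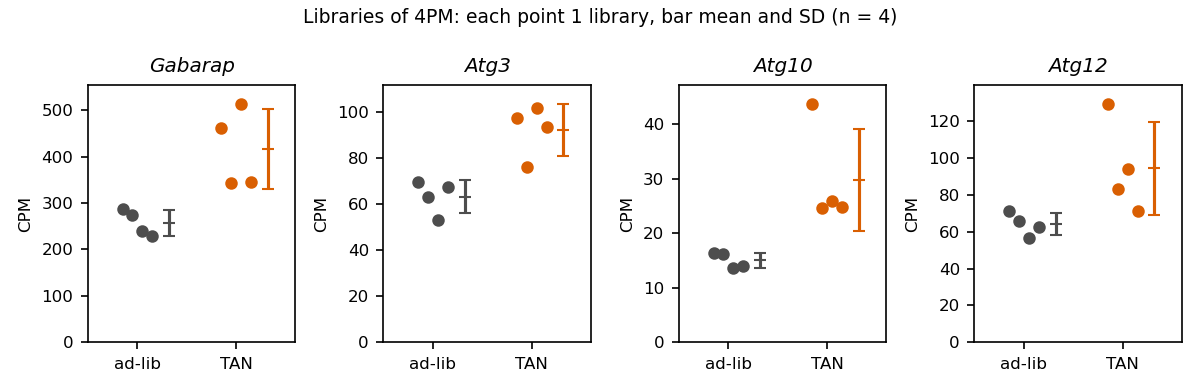
CPM of the 4 members called at 4PM in each of the 4 ad-lib and 4 TAN libraries, with the mean and SD beside the points. The TAN libraries of Gabarap, Atg3 and Atg10 lie above all ad-lib libraries, and those of Atg12 overlap them.

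The remaining Atg8 genes had positive log2 fold changes at 4 p.m. without passing the test. Map1lc3a, which encodes LC3A, had the largest at 1.17 (SE 0.46, adjusted p = 0.0704, edgeR), with 55.2 to 139 CPM in ad-lib and 133 to 319 CPM in TAN libraries. Map1lc3b, which encodes LC3B, had 206, 196, 158 and 208 CPM in ad-lib and 434, 244, 356 and 231 CPM in TAN libraries. Its 4 TAN libraries were all above the ad-lib libraries (log2 fold change 0.72, SE 0.27, adjusted p = 0.0573, edgeR). DESeq2 on the same libraries called 6 members higher, the 4 above with Map1lc3a and Map1lc3b, against 9.05% of all genes, and limma voom called the same 4 as edgeR.

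The median log2 fold change at 4 p.m. was 0.26 over the 35 members, against -0.09 over all genes. It was 0.72 over the Atg8 genes (5 of 5 positive), 0.33 over the conjugation enzymes (9 of 10), 0.25 over the initiation genes (4 of 5), 0.02 over the nucleation genes (3 of 5) and 0.04 over the lipid transfer genes (3 of 5). Outside the Atg8 and conjugation groups, 0 members were called at this time point. Both transcription factors had negative values, -0.66 for Tfeb and -0.12 for Tfe3.

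Library composition moved with the diet at 4 p.m. The lymphocyte markers summed to 9.56 to 317 CPM in TAN libraries and to 901 to 1589 CPM in ad-lib libraries, with negative fold changes for 10 of 10 and 3 called lower. The adipocyte markers summed to 37015 to 65712 CPM in TAN and to 16730 to 24137 CPM in ad-lib libraries, with positive fold changes for 7 of 7 and 2 called higher. With the mean lymphocyte marker level as a covariate, 0 genes of the 19977 and so 0 members were called, and the log2 fold changes of the 4 called members became 0.40 for Atg3, 0.51 for Gabarap, 0.41 for Atg12 and 0.45 for Atg10. Of other cell types, 1 of 7 macrophage and 1 of 4 endothelium markers were called lower at 4 p.m. Of 8 skeletal muscle markers, 0 were called, at a median log2 fold change of -2.44. Among mammary epithelium markers, Krt5, Krt14 and Elf5 did not pass the filter, and 1 of the 3 that passed was called lower. These 3 had low medians over all libraries, 0.06 CPM for Krt8, 0.20 for Krt18 and 2.66 for Epcam. Since neither the lymphocyte nor the adipocyte sum overlapped between the diets, composition and diet cannot be told apart at 4 p.m.

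The number of members called higher at 4 p.m. moved from 0 to 4 over the 8 fits that each left out 1 library. Left out 1 at a time, TAN replicate 1 or ad-lib replicate 3 or 4 left 0 called members, TAN replicate 3 left 1 (Atg10), ad-lib replicate 2 left 1 and ad-lib replicate 1 left 2. Over all 8 fits the log2 fold change stayed between 0.49 and 0.65 for Atg3 and 0.58 and 0.79 for Gabarap. It stayed between 0.74 and 1.09 for Atg10 and 0.37 and 0.67 for Atg12. Atg3, Atg10 and Atg12 were each called in 3 of the 8 fits and Gabarap in 2. The share of all genes called in each fit is not given here.

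At 8 p.m. the members lower in TAN sWAT belonged to initiation, nucleation and cargo binding. Rb1cc1, which encodes FIP200, the scaffold of the Ulk1 complex, had 69.8, 72.0, 82.7 and 80.3 CPM in ad-lib libraries and 31.0, 26.6, 15.7 and 33.6 CPM in TAN libraries. Every TAN library lay far below the lowest ad-lib library. Its log2 fold change of -1.51 (SE 0.38, adjusted p = 0.0109, edgeR) was the only one among the members called at any single time point that exceeded 1 in size.

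The nucleation genes Pik3c3 and Atg14, the catalytic subunit Vps34 and the subunit that directs it to autophagosomes, were lower as well. Pik3c3 had 42.2, 44.1, 42.3 and 47.5 CPM in ad-lib and 35.2, 30.2, 20.4 and 23.0 CPM in TAN libraries (log2 fold change -0.69, SE 0.22, adjusted p = 0.0386, edgeR). Atg14 had 18.8, 22.2, 20.6 and 21.5 CPM in ad-lib and 15.8, 9.99, 13.9 and 14.8 CPM in TAN libraries (log2 fold change -0.61, SE 0.19, adjusted p = 0.0333, edgeR). For both genes the diets did not overlap. Nbr1, a receptor for ubiquitinated cargo, had 93.9, 92.1, 93.0 and 121 CPM in ad-lib and 48.2, 48.2, 56.0 and 71.8 CPM in TAN libraries. Again no TAN library reached the ad-lib range (log2 fold change -0.83, SE 0.27, adjusted p = 0.0379, edgeR).

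The 3 members called higher at 8 p.m. are named although the rule for named genes stops at 4. Atg101, another subunit of the Ulk1 complex, had 22.4 to 31.5 CPM in ad-lib and 36.6 to 44.1 CPM in TAN libraries (log2 fold change 0.63, SE 0.20, adjusted p = 0.0390, edgeR). Atg5, the partner of Atg12, had 45.3 to 64.4 CPM in ad-lib and 79.8 to 93.7 CPM in TAN libraries (log2 fold change 0.62, SE 0.21, adjusted p = 0.0440, edgeR). Neither gene overlapped between the diets, whereas Atg4d, a protease that trims Atg8 proteins, overlapped at 16.2 to 25.2 against 23.0 to 38.1 CPM (log2 fold change 0.74, SE 0.25, adjusted p = 0.0430, edgeR). Subunits of the Ulk1 complex were thus called in opposite directions. Without overlap, 3 members were higher (4.55% of all genes), Atg5, Atg101 and Becn1, and 4 were lower (11.6%), the same 4 that were called.

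**Figure D3:**
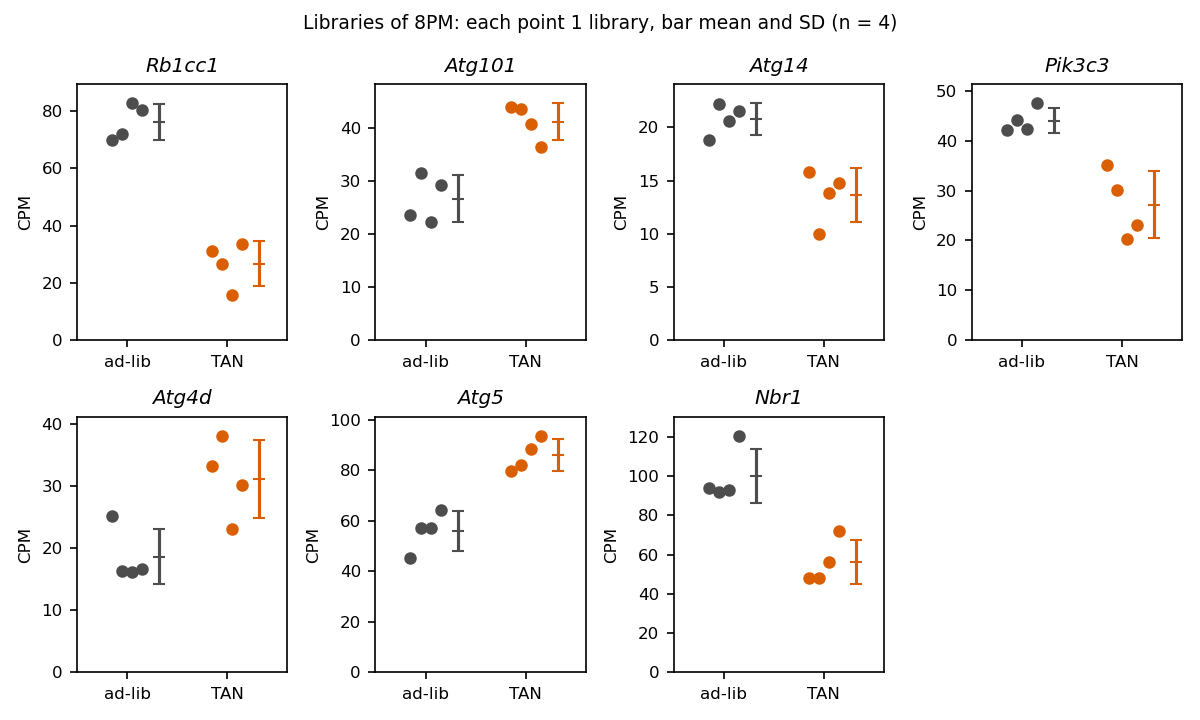
CPM of the 7 members called at 8PM in each of the 4 ad-lib and 4 TAN libraries, with the mean and SD beside the points. Rb1cc1, Atg14, Pik3c3 and Nbr1 lie lower in all TAN libraries, Atg101 and Atg5 higher in all, and Atg4d overlaps.

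Of the 4 members lower at 8 p.m., the gene length in the table was 14690 bases for Rb1cc1, 6871 for Nbr1, 4466 for Pik3c3 and 4322 for Atg14, and of the 3 higher it was 1597 for Atg101, 2352 for Atg5 and 7264 for Atg4d. Library by library, the median deviation of the 4493 protein-coding genes over 6000 bases was set against that of the 2337 under 2000 bases. This difference, long minus short on the log2 scale, was -0.76 to -0.35 in the TAN libraries of 8 p.m. and 0.10 to 0.30 in the ad-lib libraries. Loci of the TEC biotype, transcripts annotated as still to be experimentally tested, held 0.0294% to 0.0394% in TAN and 0.0807% to 0.104% of the counts in ad-lib libraries. Neither measure overlapped between the diets.

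With the long-minus-short value as a covariate, 0 members were called at 8 p.m., and the log2 fold change became -0.56 for Rb1cc1, -0.25 for Pik3c3, -0.18 for Nbr1, 0.20 for Atg101, 0.13 for Atg5 and 0.38 for Atg4d. Atg14 had -0.75. With the TEC share as a covariate, 0 members were called at either time point, Rb1cc1 had -0.37 and Atg14 -0.75, and Atg101 and Atg5 were at -0.0049 and -0.06. At 4 p.m. the long-minus-short value was -0.78 to 0.33 in TAN and 0.26 to 0.66 in ad-lib libraries, and with it as a covariate 0 members were called there too, with 0.25 for Gabarap. Because both measures separate the diets at 8 p.m., they cannot be told apart from the diet there. Shares of all genes called in these covariate fits are not given here, so a count of 0 does not single out the members.

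Cell markers at 8 p.m. differed between the diets and among the TAN libraries themselves. The 4 endothelium markers summed to 134 to 252 CPM in TAN and 334 to 478 CPM in ad-lib libraries without overlap, with 3 called lower and a median log2 fold change of -1.18, and 2 of 7 stroma and 1 of 7 macrophage markers were called lower. Their part in the member calls was not tested. TAN replicates 1 and 2 had 2378 and 2502 CPM of lymphocyte markers and 12863 and 8483 CPM of adipocyte markers, while replicates 3 and 4 had 910 and 37.2 CPM of the former and 44365 and 65383 CPM of the latter. Without replicates 1 and 2, 5 members were called, Rb1cc1 and Pik3c3 lower and Atg10, Map1lc3b and Gabarapl1 higher, against 6.21% of all genes lower and 4.59% higher in that fit. With the lymphocyte covariate, 8 were called, the 7 above and, lower, Wipi1, against 6.06% of all genes higher and 13.3% lower, and Rb1cc1 kept a log2 fold change of -1.56. Left out 1 at a time, the 8 libraries left Rb1cc1 called in 8 of 8 fits, at -1.64 to -1.33, Atg14 in 2, Pik3c3 in 1 and Nbr1 in 1.

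**Figure D4:**
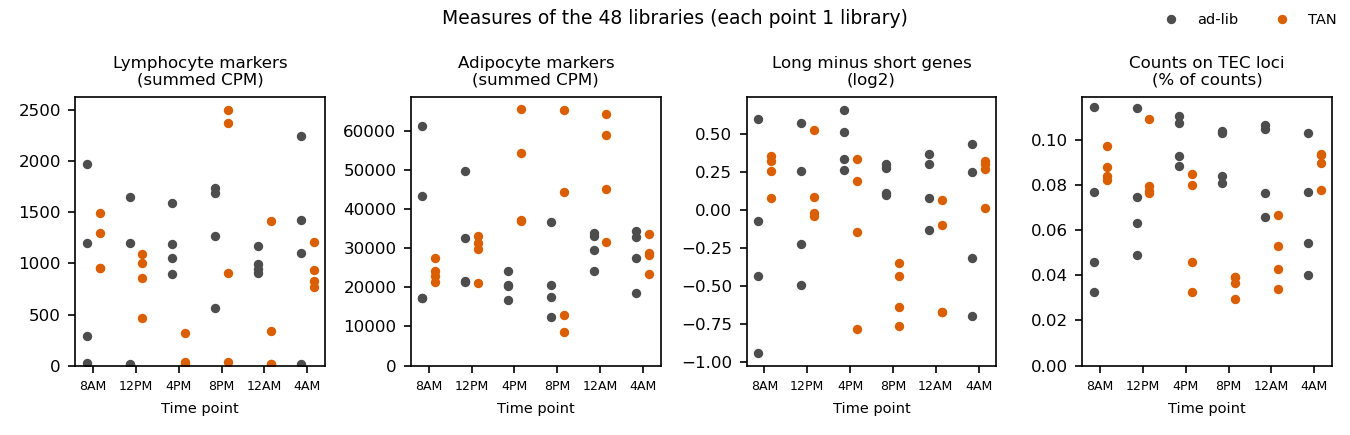
Measures of the 48 libraries by time point (1 point per library, grey ad-lib, orange TAN): summed CPM of lymphocyte and of adipocyte markers, the long-minus-short gene difference (log2) and the share of counts on TEC loci (%). At 4PM the marker sums, and at 8PM the last 2 measures, do not overlap between the diets.

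At the other 4 time points, 0 members passed the test. At 8 a.m., 1 h after the second meal, edgeR called 0 members (0.01% of all genes higher and 0.00501% lower), while unadjusted p values under 0.05 came to 1 higher (2.96%) and 2 lower (3.62%). Gabarapl1, the member with the smallest adjusted p, had 101 to 290 CPM in ad-lib and 87.7 to 122 CPM in TAN libraries (log2 fold change -0.74, SE 0.34, adjusted p = 0.716). At 12 p.m., 0 were called (0.0851% higher, 0.00501% lower), with 3 higher (4.59%) and 0 lower (2.78%) unadjusted. Atg2a, whose product moves lipid into the growing membrane, had 2.19 to 11.7 CPM in ad-lib and 11.3 to 17.0 CPM in TAN libraries there (log2 fold change 0.999, SE 0.41, adjusted p = 0.595, edgeR).

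At 12 a.m., 1 h after the first meal, edgeR called 0 members (0.125% higher, 0.025% lower), with 5 higher (8% of genes) and 1 lower (9.48%) unadjusted, while DESeq2 called 3 higher, Atg3, Map1lc3b and Gabarapl2, against 1.97% of all genes. Map1lc3b had 208, 221, 166 and 209 CPM in ad-lib and 269, 425, 422 and 335 CPM in TAN libraries. The diets did not overlap (log2 fold change 0.85, SE 0.27, adjusted p = 0.131, edgeR), and without TAN replicate 1, which had 1415 CPM of lymphocyte markers against 11.9 to 341 CPM in the other TAN libraries, 3 members were called higher, against 2.81% of all genes. At 4 a.m., 0 were called (0% of all genes in either direction), with 1 higher (0.901%) and 2 lower (1.74%) unadjusted. Atg5 had 52.6 to 91.6 CPM in ad-lib and 44.2 to 52.7 CPM in TAN libraries there (log2 fold change -0.49, SE 0.21, adjusted p = 1, edgeR). DESeq2 and limma voom called 0 members at 8 a.m., 12 p.m. and 4 a.m., and limma voom called 0 at 12 a.m.

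Averaged over the 6 time points, 1 member was called, Ulk1, the kinase that starts autophagy, against 2.68% of all genes higher and 2.74% lower. Unadjusted, 3 were higher (7.86%) and 1 lower (13.6%). The mean of Ulk1 was 18.7 CPM under ad-lib and 23.0 CPM under TAN feeding (log2 fold change 0.31, SE 0.10, adjusted p = 0.0484, edgeR). Its fold change was positive at 6 of 6 time points, from 0.01 to 0.46. The call was lost without any 1 of the 4 replicate numbers (0.24 to 0.41, adjusted p = 0.0504 to 0.233) and with the lymphocyte covariate (adjusted p = 0.0576). It held with the TEC share (adjusted p = 0.00842) or the long-minus-short value (adjusted p = 0.00983) as a covariate. Atg3 had 0.17 (adjusted p = 0.132), Atg4d 0.22 (adjusted p = 0.182) and Rb1cc1 -0.31 (adjusted p = 0.230) in the same edgeR comparison.

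Over the 6 time points, 9 of the 35 members, or 25.7%, varied in TAN libraries, which is near the 23% of all genes that did, and 0 varied in ad-lib libraries (0.0551%, 11 genes), where 0 members had an unadjusted p under 0.05 by edgeR (6.67% of genes) and limma voom called 0. The 9 were 4 of the 5 Atg8 genes, Gabarap, Map1lc3b, Gabarapl1 and Gabarapl2, with Atg3, Atg5, Atg101, Atg14 and Rb1cc1. The smallest adjusted p values were 0.00832 for Atg5, 0.00891 for Atg3, 0.0146 for Atg101 and 0.0168 for Map1lc3b (edgeR). The 9 calls came to 2 with the TEC share and 3 with the long-minus-short value as a covariate. Without replicate 1, 2, 3 and 4 they came to 5, 0, 0 and 9. How many of all genes these fits called is not given here, so the counts do not single out the members.

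In TAN sWAT the lowest mean fell at 8 a.m. for Gabarap, Map1lc3b, Gabarapl1 and Gabarapl2, and at 4 a.m. for Map1lc3a. The highest mean fell at 4 p.m. for Map1lc3a and Gabarapl1 and at 12 a.m. for the other Atg8 genes. Gabarap averaged 283 ± 17.5 CPM (SD, n = 4) at 8 a.m. and 500 ± 132 CPM (SD, n = 4) at 12 a.m. in TAN sWAT, its lowest and highest means. Map1lc3b averaged 180 ± 25.2 CPM at 8 a.m. and 363 ± 75.3 CPM at 12 a.m. (SD, n = 4 each). In ad-lib sWAT, Gabarap was highest at 8 a.m. and lowest at 4 p.m., at 393 ± 153 and 258 ± 27.8 CPM (SD, n = 4 each). Map1lc3b was highest there at 12 p.m., at 285 ± 99.5 CPM, and lowest at 8 p.m., at 178 ± 32.8 CPM (SD, n = 4 each).

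The difference itself was tested as the interaction of diet and time. It was called for 5 members, Map1lc3b (adjusted p = 0.0220), Gabarapl2 (0.0255), Gabarap (0.0369), Rb1cc1 (0.0417) and Atg3 (0.0425, edgeR), against 8.98% of all genes. For the Atg8 genes, the TAN effect was negative for 5 of 5 at 8 a.m., 12 p.m. and 4 a.m., with medians of -0.53, -0.49 and -0.23. It was positive for 5 of 5 at 4 p.m. and 12 a.m., with medians of 0.72 and 0.58, and for 4 of 5 at 8 p.m., with a median of 0.43. The 7 adipocyte markers had medians of the same sign at all 6 time points, which from 8 a.m. onward were -0.50, -0.16, 1.18, 0.53, 0.69 and -0.05, and their part in the Atg8 values was not tested. Medians of all genes at these time points lay between -0.14 and 0.04. The median long-minus-short value, from 8 a.m. onward, was 0.29, 0.03, 0.02, -0.53, -0.38 and 0.29 in TAN libraries. In ad-lib libraries it was -0.25, 0.01, 0.42, 0.19, 0.19 and -0.03, so the diets differed in the direction opposite to the Atg8 medians. Gene lengths were 1181 bases for Map1lc3a, 1844 for Gabarap, 2013 for Gabarapl1, 2325 for Gabarapl2 and 7517 for Map1lc3b. With the TEC share or the long-minus-short value as a covariate, 0 members were called in the interaction. With the lymphocyte covariate 2 were, Rb1cc1 and Nbr1. Shares of all genes called in these fits are not given here.

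The conjugation enzymes had the same signs less evenly, with 10 of 10 negative at 4 a.m. (median -0.21) and 8 of 10 positive at 12 a.m. (median 0.32). Rb1cc1 had its extremes at other hours. In TAN sWAT it was highest at 8 a.m., at 72.2 ± 9.58 CPM, and lowest at 8 p.m., at 26.7 ± 7.92 CPM (SD, n = 4 each). In ad-lib sWAT at 8 a.m. its libraries had 57.8, 77.6, 20.9 and 14.6 CPM, and the long-minus-short value of these libraries ran from -0.94 to 0.60.

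**Figure D5:**
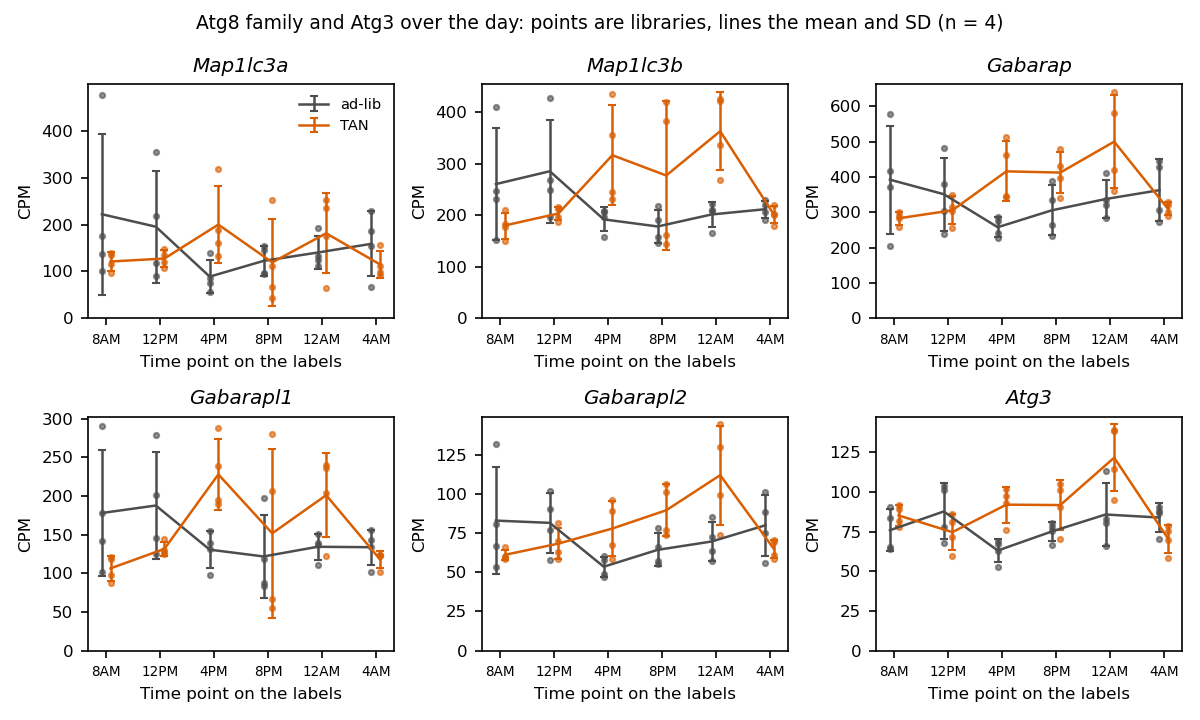
CPM of the 5 Atg8 genes and Atg3 at the 6 time points (points are libraries, lines join the means, bars are the SD, n = 4 per diet and time point). Means of TAN libraries are lower than those of ad-lib libraries at 8AM for the Atg8 genes and higher at 4PM and 12AM.

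Fed and fasted states were compared within TAN sWAT as the mean of 12 a.m. and 8 a.m., each 1 h after a meal, against the mean of 4 p.m. and 8 p.m. No member was called higher or lower by edgeR, against 3.3% and 1% of all genes, and without adjustment p fell under 0.05 for 1 member, Rb1cc1, on the higher side (12.5% of genes) and 0 on the lower side (6.14%) (0.56, SE 0.26, adjusted p = 0.236). The other members with the smallest p were Atg13 (-0.16), Ulk1 (-0.27) and Atg10 (-0.36). For Gabarap, Map1lc3b and Gabarapl2, 12 a.m. held the highest and 8 a.m. the lowest TAN mean, at 112 and 61.0 CPM for Gabarapl2. The fed mean of these genes thus joins both extremes, so this contrast cannot speak for either fed hour alone. In ad-lib sWAT over the same hours, 0 were called (0.02% and 0.015%), with 4 higher (7.63%) and 1 lower (2.92%) unadjusted. These were Gabarap (0.38), Map1lc3a (0.76), Gabarapl2 (0.37), Atg4d and, lower, Pik3c3 (-0.43).

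The difference between the diets in this contrast was called for 0 members (0.621% and 0.21%), with 1 higher (11.2%) and 6 lower (7.94%) unadjusted. It was 1.03 for Rb1cc1 (SE 0.37, adjusted p = 0.126, edgeR), -0.51 for Gabarap, -0.56 for Atg4d and -0.70 for Atg10. Over the Atg8 genes its median was -0.52, with 5 of 5 negative. Over the adipocyte markers it was -0.71, with 7 of 7 negative, and their median in the ad-lib contrast was 0.61, with 7 of 7 positive, beside 0.37 and 5 of 5 for the Atg8 genes. The part of these markers was not tested. DESeq2 and limma voom called 0 members in these 3 comparisons. With the time labels moved by 12 h, edgeR also called 0 in the 3 comparisons, and Rb1cc1 turned to -0.76 in TAN sWAT and to -1.26 in the difference.

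Neighbouring steps of the pathway were read from lists of other genes. At 4 p.m., 9 of 30 lysosomal genes were called higher in TAN sWAT and 2 lower, against the 6.54% and 8.77% of all genes given above. Ctsd, the aspartic protease cathepsin D, rose from 484 ± 79.9 to 988 ± 146 CPM (SD, n = 4 each, log2 fold change 1.03, SE 0.27, adjusted p = 0.0157, edgeR). The proton pump subunits Atp6v1h and Atp6v1d had log2 fold changes of 0.90 and 0.58 (adjusted p = 0.0172 and 0.0278), and Ctsa, a carboxypeptidase, fell by 0.55 on the log2 scale (adjusted p = 0.0213, edgeR). At 8 p.m., 1 lysosomal gene was higher, Atp6v0d1 (0.62), and 1 lower, the peptidase gene Tpp1 (-0.96). Over all time points Ctsd was higher by 0.55 (SE 0.11, adjusted p = 0.00256, edgeR).

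Of 26 genes of mTORC1 and AMPK control, the nutrient sensing that acts on the Ulk1 complex, 3 were higher and 3 lower at 4 p.m. Of all genes, 6.54% were higher and 8.77% lower there. Rheb, the activator of mTORC1, was higher (0.82, adjusted p = 0.0271, edgeR). The sestrin genes Sesn1 and Sesn3, whose products act upstream of mTORC1, were lower (-0.73 and -0.83, adjusted p = 0.0154 and 0.0290, edgeR). Rragd, a Rag GTPase, was lower at 0 to 30 counts in TAN against 98 to 160 counts in ad-lib libraries. At 8 p.m., Fnip1 (-0.78) and Prkab2 (-1.26) were lower and Stk11, the kinase LKB1 upstream of AMPK, was higher (0.64). In the fed against fasted contrast of TAN sWAT, 1 gene of this list was called, the arginine sensor Castor1, lower in the fed state (-1.06, SE 0.18, adjusted p = 0.000272, edgeR).

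Among 15 other autophagy genes, 1 was higher and 3 lower at 4 p.m., against 6.54% and 8.77% of all genes. Sh3glb1, which encodes the membrane-bending protein Bif-1, was higher (0.86, adjusted p = 0.0396), and Uvrag (-1.05), Rubcn (-1.04) and Trp53inp1 (-1.12) were lower. Uvrag and Rubcn encode an activating and an inhibiting partner of the Vps34 complex. Nrbf2, a subunit of that complex, was higher in the fed state of TAN sWAT (0.65, SE 0.12, adjusted p = 0.00119, edgeR).

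Of 14 other cargo receptors, 1 was higher and 1 lower at 4 p.m., against 6.54% and 8.77% of all genes. These were Phb2 (0.45), a receptor on mitochondria, and Retreg1 (-2.02), a receptor for the endoplasmic reticulum. At 8 p.m., 2 were higher, Phb2 (0.58) and Fkbp8 (0.72), and 2 lower, Tax1bp1 (-0.75) and Ccpg1. Ccpg1 was at 0 counts in 4 of 4 TAN libraries and at 2 to 20 counts in ad-lib libraries. Its counts were low throughout, at most 34 in any library, and 0 in some libraries of both diets at other time points. Of 14 genes of autophagosome-lysosome fusion, 0 were called at 4 p.m., and at 8 p.m. Vamp8 (0.85) was higher and the SNARE gene Snap29 (-0.49) and the tether gene Epg5 (-0.98) were lower. In the fed state of TAN sWAT, the ferritin receptor gene Ncoa4 (0.64, adjusted p = 0.0246) and Snap29 (0.37, adjusted p = 0.0196) were higher in the same edgeR test. For all these lists, the shares of all genes at 8 p.m. were 3.76% higher and 7.91% lower. In the fed against fasted contrast of TAN sWAT they were 3.3% and 1%. The median log2 fold change of all genes was -0.09 at 4 p.m. and -0.10 at 8 p.m. It was -0.08 over all time points and 0.08 between fed and fasted TAN sWAT. With the lymphocyte covariate, 0 of all genes were called at 4 p.m., as given above, so every call of these lists at 4 p.m. was lost in that fit. Because all genes lost their calls, this does not single out the lists. Composition and diet cannot be told apart at 4 p.m. The part of the other library measures in these lists, and of any measure at the other time points, was not tested.

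Counting could mix a few members with their neighbours. Exons of 10 members overlapped exons of another gene, and whether counting used strand is not given in the sources used here. The widest overlap was that of Becn1 with Cntd1, 43.9% of the exonic bases of Becn1, but Cntd1 held 107 counts over all libraries against 73487 for Becn1. Among members called at 4 or 8 p.m., Rb1cc1 shared 3.8% of its exonic bases, Atg14 5.53% and Atg4d 19.3%, the last with Kri1, which held 3916 counts against 21500.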

How the data were processed

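Bulk RNA of sWAT was measured in 48 libraries, 4 for each of 2 diets and 6 time points. The authors deposited whole-number read counts per gene, which were used as deposited. The submitters' processing notes name TopHat 1.3.3, DESeq2 1.20.0, limma and edgeR with the builds mm9, mm10 and GRCm38, with no role given, and 98.3% of the genes listed share start and end with GENCODE M21 of GRCm38. Whether counting used strand is not given in the sources used here. A second deposited table of FPKM values per group was not used, nor were columns of the authors' own comparisons.

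Libraries were grouped by the diet and time in their labels. Genes were kept by filterByExpr (minimum count 10), scaled by TMM factors and fitted in 1 model of all 12 groups with edgeR 4.0.16 in R 4.3.3 (quasi-likelihood test, Benjamini-Hochberg adjustment over 19977 genes, threshold 0.05, prior count 2 for log values). DESeq2 1.42.0 and limma 3.58.1 (voom), RLE factors, no filter, a replicate block, covariates for lymphocyte markers and for the share of counts on TEC loci, left-out libraries and time labels moved by 12 h were alternatives. The long-minus-short covariate and the fits without libraries that stood apart were added after seeing the data. The scripts were tested on simulated data.

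The members and lists were chosen with earlier results of these data known. Named members were, at each time point, up to 4 called members with the smallest adjusted p, or the 1 member with the smallest where none was called, and in the other comparisons the 4 with the smallest, called or not. Atg101, Atg4d and Atg5 at 8 p.m. and other members given in counts of 5 or fewer were named after their values were seen. Total counts per library were 15636378 to 29913310, and the lowest count of a member in any library was 23, for Atg9a.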

Additional observations from a re-analysis of the deposited data

Results flagged for a closer look

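Among 4 libraries, a library was singled out when its gap to the nearest other library, divided by the range of the group, exceeded Dixon's 95% critical value. Of 24 groups of named members tested, 2 passed, and chance passes about 1 in 20. Atg10 had 43.8 CPM in TAN replicate 1 at 4 p.m., against 24.6 to 25.9 CPM in the other TAN libraries, and Nbr1 had 121 CPM in ad-lib replicate 4 at 8 p.m., against 92.1 to 93.9 CPM in the other ad-lib libraries.

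The effect of TAN feeding differed between time points, by the test of the interaction of diet and time, for Map1lc3b (adjusted p = 0.0220), Gabarapl2 (adjusted p = 0.0255), Gabarap (adjusted p = 0.0369), Rb1cc1 (adjusted p = 0.0417) and Atg3 (adjusted p = 0.0425) in edgeR's quasi-likelihood test.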

How the results depend on the processing

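Counts of called members moved with most settings. Members higher at 4 p.m. (4) came to 0 with no filter, with the lymphocyte, TEC or long-minus-short covariate and above an absolute log2 fold change of 1, to 1 without the TAN library of lowest long-minus-short value, and to 0 to 4 without single libraries or replicate numbers. At 8 p.m. the 3 higher came to 0 with no filter, either of the TEC and long-minus-short covariates or a log2 fold change above 1, and to 0 to 2 without single libraries or replicate numbers. The 4 lower came to 1 with no filter, 0 with the TEC or long-minus-short covariate, 1 above a log2 fold change of 1, 2 without the 2 adipocyte-poor TAN libraries, and 0 to 4 without single libraries or replicate numbers. At 12 a.m., 0 became 3 with DESeq2 and 0 to 3 without libraries. The mean effect (1) was 0 with no filter, with the lymphocyte covariate and without any replicate number. Variation in TAN (9) was 2 with the TEC and 3 with the long-minus-short covariate, and 0 to 9 without a replicate number. The interaction (5) was 3 with no filter, 8 with RLE factors, 12 with limma voom, 2, 0 and 0 with the lymphocyte, TEC and long-minus-short covariates, and 0 to 3 without a replicate number. Shares of all genes called in these settings are not given beside the counts, so the moves do not single out the members. The cause was not tested.

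The replicate numbers did not pair the libraries (24 pairs, correlation of deviations -0.328 to 0.499, 5 above 0.1). With the replicate block, 4 members were higher at 4 p.m., 1 was higher and 4 lower at 8 p.m., 9 varied in TAN sWAT and 3 had an interaction.

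Atg101 and Atg5, called higher at 8 p.m., turned to -0.0049 and -0.06 with the TEC covariate. The other turned signs, among members named by the rule, belong to values called in neither fit. Rb1cc1 had 0.0105 in the mean with the TEC covariate. Gabarap had 0.0503 with the TEC and 0.0108 with the long-minus-short covariate in the difference of fed against fasted. With times moved by 12 h, fed against fasted gave -0.76 for Rb1cc1, 0.0065 for Atg13, 0.16 for Ulk1 and 0.37 for Atg10 in TAN. In ad-lib it gave 0.36 for Pik3c3, -0.17 for Gabarapl2, -0.28 for Map1lc3a and -0.20 for Gabarap. The difference gave -1.26 for Rb1cc1, 0.70 for Atg4d, 0.47 for Gabarap and 0.55 for Atg10.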
